A study of Mus musculus with 24 samples.

Results

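The response of the mouse heart to a single treadmill bout at the start of the active phase was read from 12 of the 24 libraries of the series, 6 from exercised mice (ZT12-EX) and 6 from sedentary mice (ZT12-SED). The libraries were chosen by their labels alone, were fitted without the other libraries, and the comparison was made across the 14200 genes that passed a filter on low counts. ZT, zeitgeber time, is the number of hours after lights on, and ZT12 is the moment the lights go off and nocturnal mice become active. Every mouse was a wild-type (WT) C57Bl/6 male of 12 weeks, housed with 12 h light and 12 h dark, and each library is labelled as its own biological replicate. ZT12-EX mice ran once for 60 min at 10 m/min and 0% grade at ZT12, under red light, after habituation to the treadmill. ZT12-SED mice were the sedentary controls of the same time of day. The remaining groups, ZT0-SED and ZT0-EX, were sedentary mice and mice given the same bout at ZT0, the start of the rest phase, with 6 mice each, and serve here only as side-by-side values. The part of the heart that was taken and the time between the bout and collection are not stated in the labels.

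The 12 libraries held 9697334 to 20974196 counts, and they differed strongly by flow cell, the sequencing run unit that carried replicates 1, 2 and 3 (flow cell 1) or 4, 5 and 6 (flow cell 2) of each group. Transcripts of the mitochondrial genome took 40.7% to 55.1% of ZT12-SED counts and 32.4% to 36.6% of ZT12-EX counts on flow cell 1, against 14.7% to 20.7% and 2.70% to 20.6% on flow cell 2. The level of a gene relative to the other libraries fell with its transcript GC content in all 6 libraries of flow cell 1. It rose with GC content in all 6 of flow cell 2. The Spearman correlations across genes were -0.819 to -0.41 and 0.609 to 0.794. On flow cell 1 the trend was weaker in every exercised mouse (-0.696, -0.531 and -0.41) than in any sedentary mouse (-0.777, -0.819 and -0.734). On flow cell 2 the groups overlapped, with exercised mice at 0.633, 0.781 and 0.609 and sedentary mice at 0.739, 0.794 and 0.788. Fitting flow cell as a term does not remove a group difference within a flow cell. The first principal component, which separates the flow cells, held 71.2% of the variance. ZT12-EX replicate 4 and ZT12-SED replicates 1 and 2 were least like the rest, with mean Spearman correlations to the other libraries of 0.764, 0.806 and 0.871. Heart muscle markers were abundant in every library (summed level of 9 genes 28312 to 185623 CPM, counts relative to a library total that TMM has scaled, the highest in ZT12-EX replicate 4), while 6 lung and airway markers summed to at most 2.86 CPM, with Sftpb, Sftpa1 and Scgb1a1 at 0 throughout. Transcripts of the skeletal muscle myosin gene Myh4 were at 249 CPM in ZT12-SED replicate 6 and 305 CPM in ZT12-EX replicate 6, and at most 0.716 CPM elsewhere.

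Working muscle and heart answer exertion within the hour with a wave of early gene transcription. Heat shock factor 1, released when unfolded proteins occupy the HSP70 and HSP90 chaperones, binds heat shock elements and raises the genes of the chaperones themselves, which closes a feedback loop. Catecholamine and calcium signals act through CREB and related factors on immediate-early genes such as the NR4A orphan nuclear receptors and members of the AP-1 family. Glucocorticoids, which in mice peak near the start of the active phase, act on another set that includes Per1, Fkbp5 and Cdkn1a and that overlaps the circadian clock.

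After exercise at ZT12, 10 genes rose (0.0704% of the genes tested) and 4 fell (0.0282%) at an adjusted p of 0.05. The 10 that rose were 5 chaperone genes (Hspa1a, Hspa1b, Hsph1, Dnajb1 and Hspb1), 3 early-response transcription factors (Nr4a1, Nr4a3 and Atf3), the collagen-modifying enzyme gene P4ha1 and Misp. Among the 4 that fell were the chemokine receptor gene Ccr2, Evi2a and Skida1. All 14 changed more than 2-fold, with log2 fold changes of 1.17 to 3.71 for the rises and -1.18 to -1.45 for Ccr2, Evi2a and Skida1. All 14 had the same sign on each flow cell, which is not independent evidence, since the calls came from these same libraries. Across all genes tested the median log2 fold change was 0.05, and 54.4% of genes lay above 0. Without ZT12-EX replicate 4 and ZT12-SED replicates 1 and 2 there were 13 calls, 12 higher and 1 lower, with 9 of the 14 among them. Scaling by library totals in place of TMM moved the median of all genes to 0.22 and left 6 calls, all higher. The number of calls also fell by more than 1.5 times when 1 library was left out, to 3 without ZT12-SED replicates 2, 4, 5 or 6 in turn, 6 without ZT12-SED replicate 3, 5 without ZT12-EX replicate 1, 4 without ZT12-EX replicates 2 or 5, and 7 without ZT12-EX replicate 3.

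**Figure D1:**
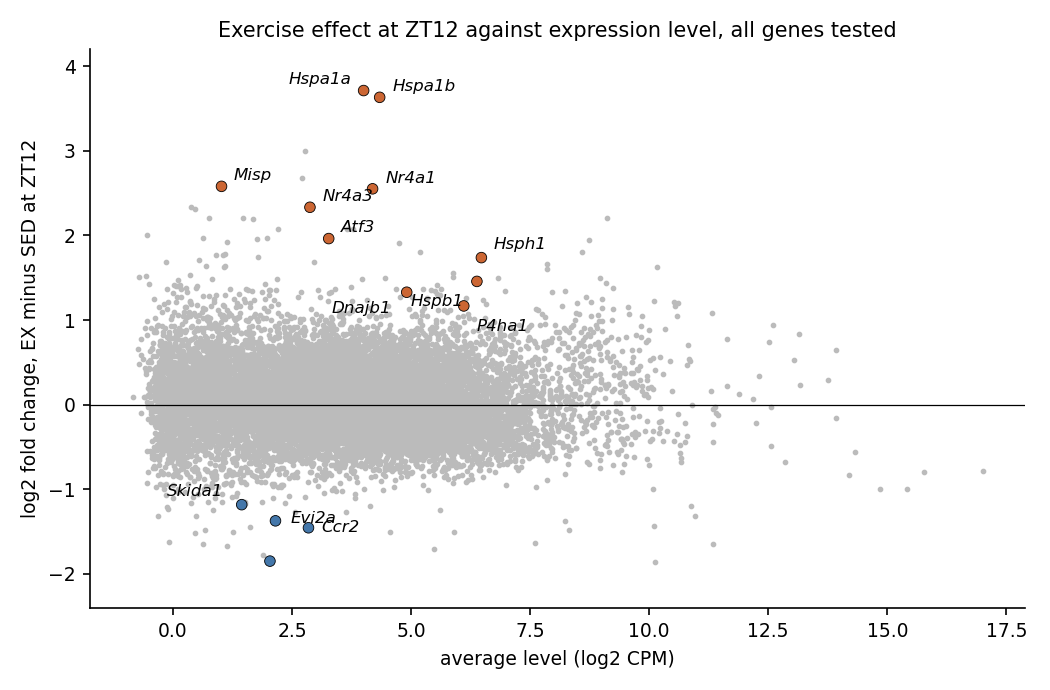
Log2 fold change, ZT12-EX minus ZT12-SED (vertical axis), against the average level in log2 CPM (horizontal axis) for the 14200 genes tested; orange points are the 10 genes that rose, blue points the 4 that fell, grey points all others. The called genes lie at low to middle levels, and Hspa1a and Hspa1b stand highest, at 3.71 and 3.63.

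At an unadjusted p under 0.05, calls included, 1076 genes were higher (7.58% of the genes tested) and 833 lower (5.87%), which is the background for the list counts below. The levels of 21 genes were higher in all 6 ZT12-EX libraries than in any ZT12-SED library (0.148%), and those of 13 genes were lower (0.0915%). Among the 14 called genes, 6 were separated in this way, namely Hspa1a, Hspa1b, Dnajb1, Nr4a3, Atf3 and P4ha1. Within each flow cell taken alone, 3 mice against 3, the groups were separated with ZT12-EX higher on both for 140 genes (0.986%) and lower on both for 148 (1.04%). All 14 called genes were separated on both flow cells. Flow cell was a term in the fit, so genes were called on differences within flow cells. Their separation there follows in part from the selection and is not independent evidence.

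**Figure D2:**
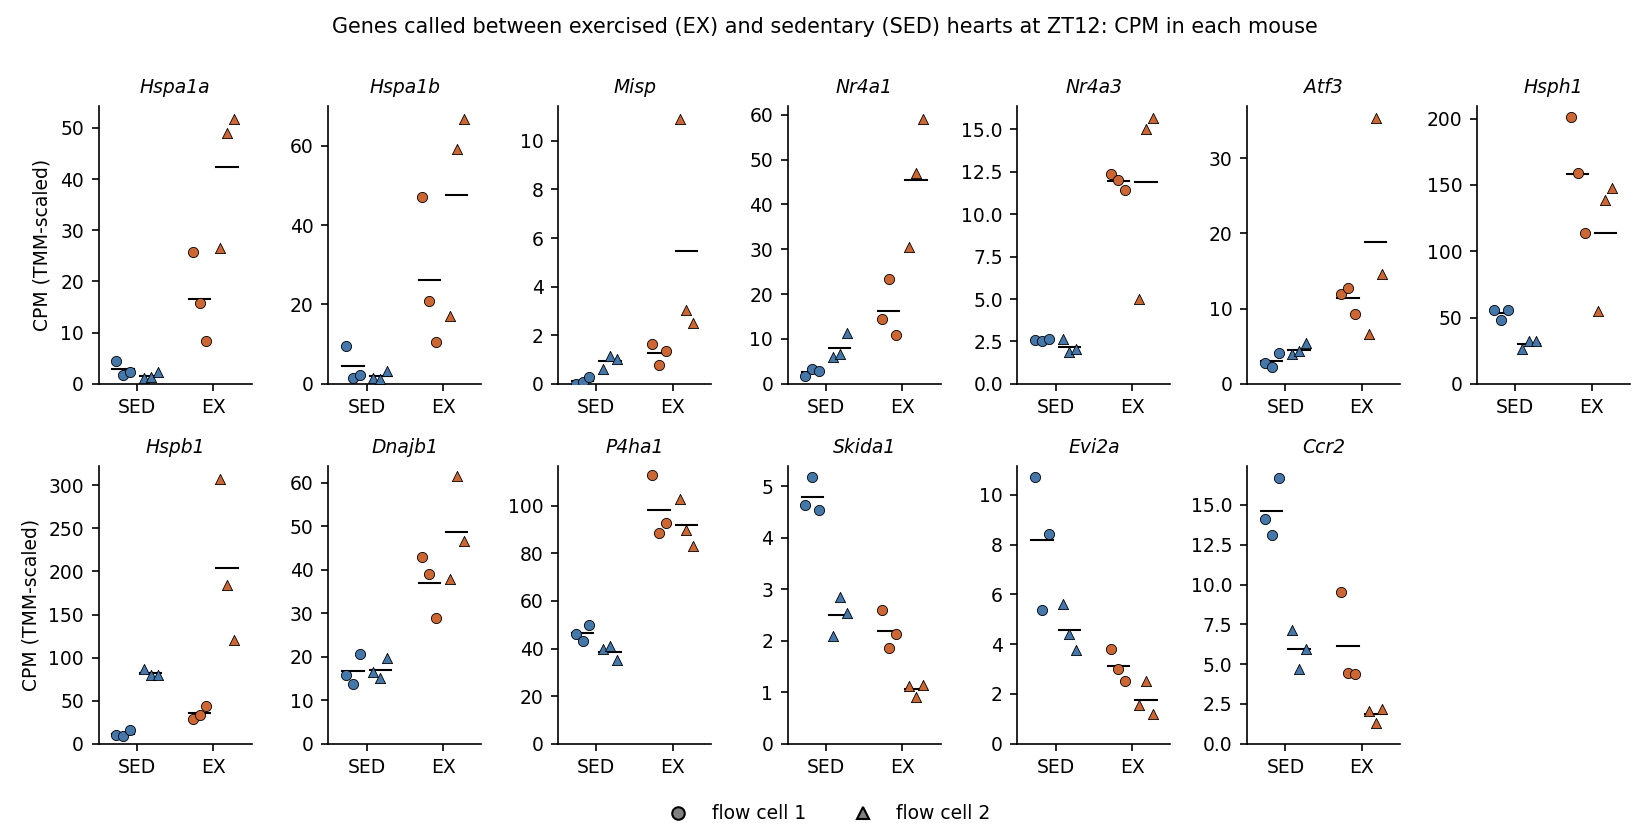
CPM (linear axes from 0, scaled by TMM) of 13 of the 14 called genes in each of the 12 mice, with ZT12-SED in blue, ZT12-EX in orange, circles for flow cell 1, triangles for flow cell 2, and a bar at the mean of 3 mice. For Hspb1, Ccr2, Evi2a and Skida1 the flow cells sit at different levels, and the groups separate within each flow cell rather than across both.

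The inducible HSP70 genes had the largest changes. Hspa1a, whose protein holds unfolded client proteins and refolds them with ATP, was at 1.09, 2.00 and 4.44 CPM (lowest, median and highest of 6 mice) in ZT12-SED and at 8.42, 26.2 and 51.8 CPM in ZT12-EX. No ZT12-SED library reached the lowest ZT12-EX library. The log2 fold change was 3.71 ± 0.47 (SE; adjusted p = 0.00549), and mean log2 CPM differed by 2.48 between the mice of flow cell 1 and by 4.67 between those of flow cell 2. Hspa1b, its neighbouring copy with nearly the same coding sequence, was at 1.30, 1.86 and 9.44 CPM in ZT12-SED and at 10.6, 34.0 and 66.8 CPM in ZT12-EX, again without overlap, and rose by 3.63 ± 0.60 (adjusted p = 0.0418). Reads can be assigned to either copy, and 564 exon bases of Hspa1a also belong to a predicted gene on the opposite strand, so the separate values of the copies are uncertain. Hspa1a passed the threshold in all 12 fits that left out 1 library. Hspa1b passed in the 3 fits without ZT12-SED replicate 1, ZT12-EX replicate 3 or ZT12-EX replicate 4 and reached an adjusted p of 0.166 in the others. Over 17 other settings Hspa1a was called in 13 and Hspa1b in 11. Offsets for transcript GC content, alone or with replicate number as a block, ended both calls, as did each flow cell alone. The adjusted p of Hspa1a was then up to 0.296.

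The genes of HSP70 co-chaperones Hsph1 and Dnajb1 also rose. Hsph1 encodes HSP110, the exchange factor that releases ADP from HSP70, and was at 26.4, 40.2 and 55.9 CPM in ZT12-SED and at 54.6, 143 and 201 CPM in ZT12-EX. Only the lowest ZT12-EX library, replicate 4, fell inside the ZT12-SED range. Hsph1 rose by 1.74 ± 0.25 (adjusted p = 0.0145). Dnajb1 encodes the HSP40 protein that hands clients to HSP70, and it was at 13.8, 16.1 and 20.6 CPM in ZT12-SED and at 28.9, 41.0 and 61.6 CPM in ZT12-EX, with no overlap, a rise of 1.33 ± 0.19 (adjusted p = 0.0152). Both missed the threshold without ZT12-SED replicates 2, 4, 5 or 6 or ZT12-EX replicates 1, 2 or 5 in turn, with adjusted p of at most 0.0938 for Hsph1 and 0.108 for Dnajb1.

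Hspb1 encodes the small heat shock protein HSP27, which binds unfolding proteins without ATP. On flow cell 1 its 3 ZT12-SED libraries lay far below those of flow cell 2, and over all mice it was at 8.99, 47.4 and 87.3 CPM in ZT12-SED and at 28.9, 82.2 and 308 CPM in ZT12-EX. The groups overlapped across flow cells but not within either, and Hspb1 rose by 1.46 ± 0.24 (adjusted p = 0.0418). This call held only without ZT12-EX replicate 4 or ZT12-EX replicate 6 when 1 library was left out, and the adjusted p otherwise reached 0.168. With GC offsets, which take a smooth trend with transcript GC content out of each library, the log2 fold change of Hspb1 was 0.96 (adjusted p = 0.219).

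The promoters of these chaperone genes are shown because heat shock elements are the textbook sites of heat shock factor 1. The windows are RefSeq sequences of the GRCm38.p6 build, 250 bases before to 50 bases after an annotated start, 5′ to 3′ on the gene's strand: Hspa1a at chr17:34972107-34972406 (minus), Hspa1b at chr17:34959189-34959488 (minus), Hsph1 at chr5:149636266-149636565 (minus) and Hspb1 at chr5:135887669-135887968 (plus). Capitals in these 4 windows mark every pair of facing units, GAANNTTC or TTCNNGAA, and, in Hspb1 alone, also a CGTCA motif of the kind described for the NR4A genes.
Hspa1a: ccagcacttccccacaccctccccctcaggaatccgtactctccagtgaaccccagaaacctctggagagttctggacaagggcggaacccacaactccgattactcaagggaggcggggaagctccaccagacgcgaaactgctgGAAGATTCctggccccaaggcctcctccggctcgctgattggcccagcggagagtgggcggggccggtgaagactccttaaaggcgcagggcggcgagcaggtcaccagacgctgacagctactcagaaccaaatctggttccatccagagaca
Hspa1b: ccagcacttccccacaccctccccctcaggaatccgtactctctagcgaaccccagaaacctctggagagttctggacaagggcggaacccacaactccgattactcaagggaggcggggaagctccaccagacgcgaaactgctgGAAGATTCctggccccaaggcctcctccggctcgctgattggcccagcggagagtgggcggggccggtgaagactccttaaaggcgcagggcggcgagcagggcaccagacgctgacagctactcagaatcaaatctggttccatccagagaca
Hsph1: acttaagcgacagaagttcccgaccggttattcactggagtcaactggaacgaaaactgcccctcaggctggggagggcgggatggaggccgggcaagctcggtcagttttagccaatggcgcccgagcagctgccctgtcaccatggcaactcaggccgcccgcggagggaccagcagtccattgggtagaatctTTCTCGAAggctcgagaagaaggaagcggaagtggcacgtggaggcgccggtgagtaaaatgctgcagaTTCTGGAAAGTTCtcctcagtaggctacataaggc
Hspb1: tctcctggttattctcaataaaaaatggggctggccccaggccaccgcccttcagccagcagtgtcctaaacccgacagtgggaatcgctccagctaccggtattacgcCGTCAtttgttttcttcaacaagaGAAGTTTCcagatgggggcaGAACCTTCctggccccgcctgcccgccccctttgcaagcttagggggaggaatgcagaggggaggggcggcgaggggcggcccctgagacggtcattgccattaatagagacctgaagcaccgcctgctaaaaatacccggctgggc
The pair began at position -104 from the start in both Hspa1a and Hspa1b, whose windows were identical at 296 of 300 positions (98.7%). In Hspb1 pairs began at positions -117 and -97. Hsph1 had a pair at position -54 and, after the start, the only run of 3 units, TTCNNGAANNTTC, among the genes searched. A pair on either strand was found for 4 of the 8 called chaperone, NR4A and AP-1 genes and was absent from the windows of Dnajb1, Nr4a1, Nr4a3 and Atf3. Over the whole table, 15.1% of 32851 windows held a pair and 0.603% held 3 units. Counted by gene, as for the 8, the shares were 17% and 0.662% of 27025 genes. A match describes letters in the window and not a bound site.

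The rest of the chaperone lists mostly did not pass the test. Among 12 HSP70 and HSP110 genes, 3 rose, none fell, 4 were higher at an unadjusted p under 0.05, and the median log2 fold change was 0.00, beside 0.05 for all genes. Hspa8, the constitutive HSP70, had higher levels in all 6 ZT12-EX mice (1234 to 2346 CPM) than in any ZT12-SED mouse (839 to 989 CPM), yet its log2 fold change of 0.89 ± 0.22 had an adjusted p of 0.315. HSP90 and its co-chaperones, which mature kinases and steroid receptors, gave no call among 13 genes, but 8 were higher at an unadjusted p under 0.05 and the median was 0.48. The inducible Hsp90aa1 differed by 1.33 ± 0.27 (adjusted p = 0.152), and Stip1, the adaptor between HSP70 and HSP90, by 0.88 ± 0.18 (adjusted p = 0.157). Stip1 and Hsp90ab1 (0.88 ± 0.22, adjusted p = 0.315) were both higher in every ZT12-EX mouse than in any ZT12-SED mouse. Of 16 DNAJ genes 1 rose (Dnajb1), of 16 small heat shock and BAG genes 1 rose (Hspb1), and their medians were 0.12 and 0.10 (0.02 and -0.07 with GC offsets). With offsets for transcript GC content, the 1 call left in these 4 lists was Hsph1.

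Chaperones of the endoplasmic reticulum gave no call among 17 genes, with 5 higher at an unadjusted p under 0.05 and a median of 0.28. Serpinh1, the collagen-specific chaperone HSP47, differed by 0.77 ± 0.16 (adjusted p = 0.184), and Creld2 by 1.09 ± 0.27 (adjusted p = 0.315). P4ha1, the catalytic subunit of prolyl 4-hydroxylase that stabilises the collagen triple helix, did rise. It was at 35.2, 42.2 and 49.6 CPM in ZT12-SED and at 83.1, 91.3 and 113 CPM in ZT12-EX, with no overlap and the smallest SE of the called genes, for a change of 1.17 ± 0.16 (adjusted p = 0.00857). It kept its call in 8 of the 12 fits that left out 1 library, and without ZT12-SED replicates 2, 4, 5 or 6 in turn the adjusted p was at most 0.0734. The collagen and matrix genes themselves gave no call among 21, with a median of 0.17 (-0.05 with GC offsets). The integrated stress response, which slows translation under stress, gave no call among 14 genes, with a median of 0.41 (0.20 with GC offsets and 0.13 with 2 surrogate variables, which are trends across libraries estimated from all genes). Its member with the smallest p was Ppp1r15a, the phosphatase subunit that restarts translation, at 1.05 ± 0.22 (adjusted p = 0.157).

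Of the 3 NR4A receptor genes, 2 rose, and the median log2 fold change was 2.33. Nr4a1 was at 1.67, 4.71 and 11.3 CPM in ZT12-SED and at 10.9, 26.9 and 59.1 CPM in ZT12-EX. Its level was higher on flow cell 2 in both groups, so that the highest ZT12-SED library just passed the lowest ZT12-EX library, but within each flow cell the groups were apart. Nr4a1 rose by 2.55 ± 0.27 (adjusted p = 0.00188), and by 2.58 and 2.49 as differences of mean log2 CPM on the flow cells. Nr4a3 was at 1.85, 2.55 and 2.65 CPM in ZT12-SED and at 5.02, 12.2 and 15.7 CPM in ZT12-EX, and rose by 2.33 ± 0.26 (adjusted p = 0.00188). The ZT12-SED values of Nr4a3 were close together on both flow cells, and ZT12-EX replicate 4, at 5.02 CPM, was the one low exercised library. Nr4a1 and Nr4a3 passed in all 12 fits that left out 1 library. Nr4a2, the third member, was at 0.234 to 1.02 CPM in ZT12-SED and 0.410 to 3.04 CPM in ZT12-EX, and its difference of 1.40 ± 0.36 did not pass (adjusted p = 0.346).

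The NR4A promoters are shown because CREB acts on these genes through cAMP response elements. Nr4a1 (chr15:101266596-101266895, plus) and Nr4a3 (chr4:48045055-48045354, plus) are again RefSeq windows of GRCm38.p6, with capitals at each short element, TGACG or its reverse complement CGTCA.
Nr4a1: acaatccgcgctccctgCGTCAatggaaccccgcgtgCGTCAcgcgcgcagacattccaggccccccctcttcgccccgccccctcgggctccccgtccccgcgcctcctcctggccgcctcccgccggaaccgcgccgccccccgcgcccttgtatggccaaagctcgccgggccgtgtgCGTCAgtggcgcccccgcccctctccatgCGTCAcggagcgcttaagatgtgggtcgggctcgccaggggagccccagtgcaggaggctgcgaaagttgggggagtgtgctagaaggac
Nr4a3: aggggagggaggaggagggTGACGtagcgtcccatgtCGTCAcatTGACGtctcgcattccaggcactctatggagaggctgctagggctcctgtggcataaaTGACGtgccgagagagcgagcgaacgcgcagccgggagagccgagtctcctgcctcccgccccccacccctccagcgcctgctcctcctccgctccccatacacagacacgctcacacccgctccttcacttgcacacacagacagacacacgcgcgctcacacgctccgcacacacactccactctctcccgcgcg
Each window held 4 short elements, beginning at positions -233, -213, -69 and -40 from the start in Nr4a1 and -231, -213, -205 and -147 in Nr4a3. A short element was found for 5 of the 8 genes searched, those of Nr4a1, Nr4a3, Dnajb1, Hspb1 and Atf3. Over the whole table it was found for 23% of genes and in 20.8% of windows. The full palindrome TGACGTCA was found for none of the 8, and over the whole table for 2.03% of genes and in 1.79% of windows.

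Other early-response families were mostly below the threshold. Of 10 AP-1 genes tested 1 rose, 5 were higher at an unadjusted p under 0.05, and the median was 0.64 (0.38 with GC offsets). The gene that rose was Atf3, a stress-induced bZIP factor that mostly represses its targets. It was at 2.23, 4.01 and 5.42 CPM in ZT12-SED and at 6.56, 12.4 and 35.3 CPM in ZT12-EX, with no overlap, and rose by 1.96 ± 0.33 (adjusted p = 0.0429). Of the 12 fits that left out 1 library, only that without ZT12-EX replicate 4 kept the call, and the adjusted p otherwise reached 0.176. Fos, the classic immediate-early gene, was at 1.17 to 1.85 CPM in ZT12-SED and 0.410 to 4.99 CPM in ZT12-EX, with a log2 fold change of 0.79 ± 0.44 (adjusted p = 0.409). Maff (0.97 ± 0.23, adjusted p = 0.294) and Jdp2 (0.99 ± 0.24, adjusted p = 0.315) did not pass either. None of 10 EGR and IER genes was called, and Egr1 had 0.52 ± 0.27 (adjusted p = 0.393). None of 8 MAPK phosphatase genes was called.

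**Figure D3:**
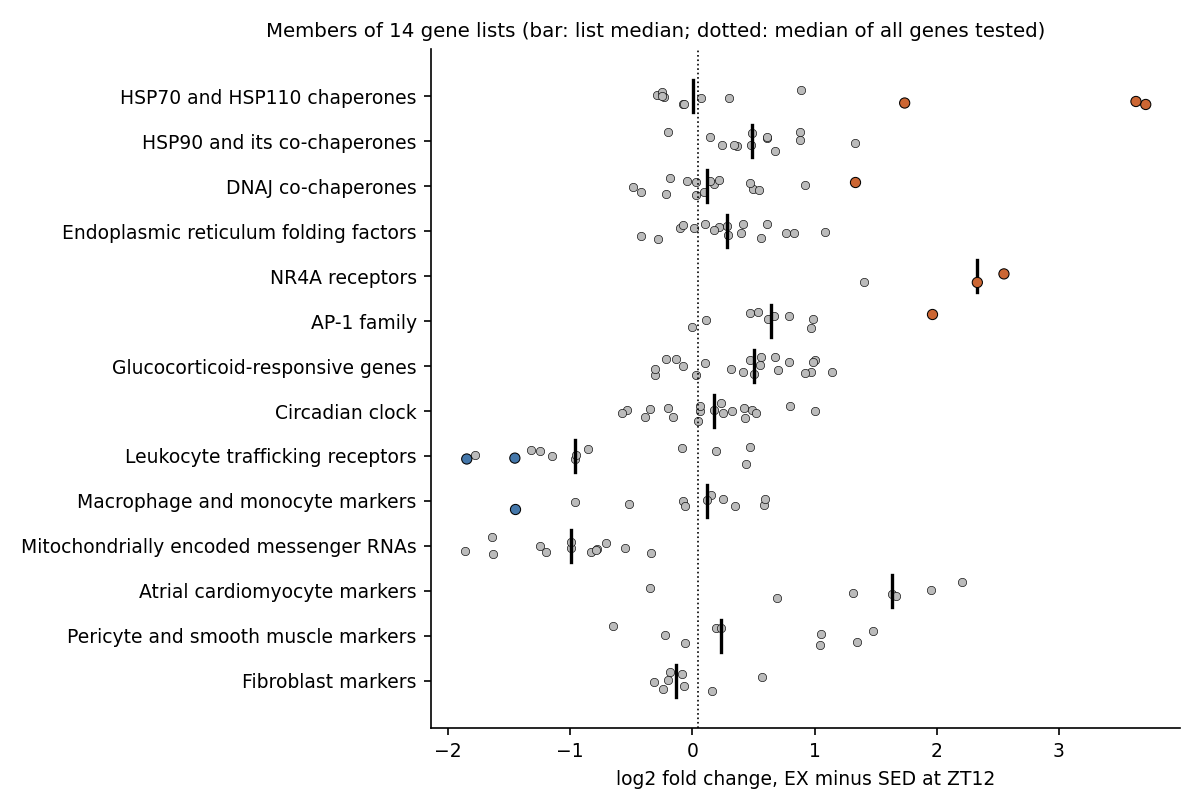
Log2 fold change, ZT12-EX minus ZT12-SED, of each tested member of 14 gene lists, with orange points for genes that rose, blue points for genes that fell, grey points for the rest, a black bar at the list median and a dotted line at the median of all genes, 0.05. NR4A receptors have the highest median (2.33) and mitochondrially encoded messenger RNAs the lowest (-0.997), the latter without a called member.

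Glucocorticoid-responsive genes, with the receptor gene Nr3c1 among them, gave no call among 21 at ZT12. Of these, 9 were higher and none lower at an unadjusted p under 0.05, and the median was 0.51. With GC offsets this median was 0.27. Cdkn1a, the cell-cycle inhibitor p21, was at 7.33 to 18.6 CPM in ZT12-SED and at 18.7 to 30.2 CPM in ZT12-EX. Its ranges did not overlap, but the log2 fold change of 1.15 ± 0.23 had an adjusted p of 0.133. Fkbp5, which tunes the glucocorticoid receptor as an HSP90 partner, differed by 0.68 ± 0.21 (adjusted p = 0.362). Per1, a clock repressor with glucocorticoid and cAMP response elements, differed by 1.00 ± 0.38 (adjusted p = 0.362), and mean log2 CPM differed by 2.11 within flow cell 1 and 0.28 within flow cell 2. Among 11 genes of the SIK kinases and their CREB pathway none passed, and Sik1, itself a CREB target, had 1.27 ± 0.28 (adjusted p = 0.211). Irs2, an insulin receptor substrate, had 1.39 ± 0.39 (adjusted p = 0.356).

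The circadian clock gave no call among 19 genes, with 2 higher and 1 lower at an unadjusted p under 0.05 and a median of 0.18, with flow cell medians of 0.30 and -0.06 and 0.02 with GC offsets. Per2 was at 27.1 to 42.0 CPM in ZT12-SED and 21.0 to 71.8 CPM in ZT12-EX, a log2 fold change of 0.48 ± 0.25 (adjusted p = 0.386). Bhlhe41, the repressor DEC2, was lower in every ZT12-EX mouse (9.43 to 16.2 CPM) than in any ZT12-SED mouse (17.2 to 28.1 CPM), at -0.58 ± 0.19 (adjusted p = 0.362). Bmal1, the activator of the loop, was low in both groups, at 0.546 to 2.41 CPM in ZT12-SED and 0.307 to 1.44 CPM in ZT12-EX (log2 fold change -0.35 ± 0.38, adjusted p = 0.641). The clock output gene Dbp (0.05 ± 0.27, adjusted p = 0.934) and the repressor Nr1d1 (0.32 ± 0.27, adjusted p = 0.549) took the opposite sign under some settings, as did Bmal1.

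The chemokine receptor gene Ccr2 fell. Of 13 leukocyte trafficking receptors tested 2 fell, none rose, 9 were lower at an unadjusted p under 0.05, and the median was -0.96, with -1.06 and -0.86 on the flow cells. This list was drawn up with earlier results of these data known, so its counts and median are not independent evidence. Ccr2, the receptor that draws monocytes from blood to CCL2, was at 4.71, 10.1 and 16.7 CPM in ZT12-SED and at 1.31, 3.30 and 9.53 CPM in ZT12-EX. The groups overlapped across flow cells and not within them, and Ccr2 fell by 1.45 ± 0.25 on the log2 scale (adjusted p = 0.0429). Gpr34, a lysophosphatidylserine receptor of macrophages, lay just outside the threshold at -1.78 ± 0.32 (adjusted p = 0.0515). P2ry13, an ADP receptor of myeloid cells, had -1.25 ± 0.28 (adjusted p = 0.26), and the fractalkine receptor Cx3cr1 had -0.96 ± 0.42 (adjusted p = 0.363). With 1 library left out, Ccr2 passed only without ZT12-EX replicate 1 or ZT12-EX replicate 4 (adjusted p otherwise up to 0.166). Over 17 other settings its log2 fold change lay between -1.66 and -1.09 and it was called in 8. Among those that ended the call were library totals (adjusted p = 0.684), no flow cell term (0.965), GC offsets (0.297), 2 surrogate variables (0.0912), both groups without their sixth replicate (0.143), and leaving out the 3 libraries least like the rest (0.059).

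In bulk tissue, fewer cells of a type and less RNA per cell cannot be told apart. Of 11 macrophage and monocyte markers tested, Ccr2 fell and none rose, 3 were lower and none higher at an unadjusted p under 0.05 (Ccr2, Cx3cr1 and Mrc1), and the median was 0.12 (-0.04 with GC offsets). Ccr2 and Cx3cr1 are in both lists. The summed level of the 12 markers was 315 to 470 CPM in ZT12-SED and 281 to 639 CPM in ZT12-EX. Mrc1, the mannose receptor of tissue macrophages, had -0.52 ± 0.22 (adjusted p = 0.362). Neutrophil markers summed to 1.57 to 40.3 CPM in ZT12-SED and 1.84 to 6.54 CPM in ZT12-EX, and only 2 of 8 were tested. Lymphocyte markers summed to 8.14 to 37.9 and 9.08 to 17.2 CPM, with 4 of 11 tested and none called. No marker of these 3 lists was at 0 in all libraries, and their part in the receptor result was not tested. Chemokines and cytokines gave no call among 21 genes and a median of -0.02, with Ccl12 at -1.51 ± 0.37 (adjusted p = 0.315) and Ccl7 at -1.17 ± 0.35 (adjusted p = 0.362).

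The remaining calls were single genes at low level. Evi2a, which encodes a predicted membrane protein, was at 3.75, 5.50 and 10.7 CPM in ZT12-SED and at 1.21, 2.51 and 3.79 CPM in ZT12-EX, and fell by 1.37 ± 0.24 (adjusted p = 0.0488). It shares 442 exon bases with Evi2 on the same strand and lies inside Nf1 on the other, so its reads are uncertain, and it passed in none of the 12 fits that left out 1 library (adjusted p up to 0.201). Skida1, a SKI and DACH domain gene, was at 2.11, 3.70 and 5.19 CPM in ZT12-SED and at 0.913, 1.5 and 2.59 CPM in ZT12-EX, and fell by 1.18 ± 0.20 (adjusted p = 0.0418). It passed only without ZT12-SED replicate 1 or ZT12-EX replicate 4 (adjusted p otherwise up to 0.161). Misp, an actin-bundling protein of the spindle and cell cortex, was at 0, 0.457 and 1.15 CPM in ZT12-SED and at 0.793, 2.08 and 10.9 CPM in ZT12-EX, and rose by 2.58 ± 0.45 (adjusted p = 0.0488). The library with no Misp count, ZT12-SED replicate 1, could hold up to 0.556 CPM (3 counts), and the highest, 10.9 CPM, was ZT12-EX replicate 4. Misp passed only without ZT12-EX replicate 6, with an adjusted p of up to 0.227 in the other 11 fits. Without the 3 libraries least like the rest the log2 fold change of Misp was 1.69 (adjusted p = 0.0677).

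**Figure D4:**
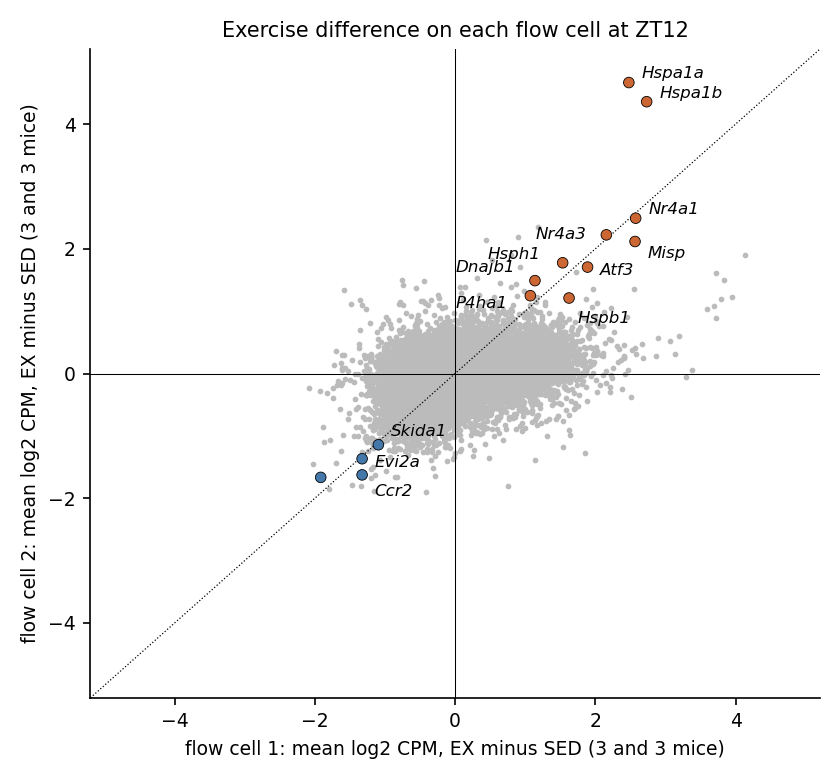
Difference of mean log2 CPM, ZT12-EX minus ZT12-SED, on flow cell 2 (vertical axis) against flow cell 1 (horizontal axis), 3 mice per group on each, for all genes tested; called genes are in orange (higher) or blue (lower), and the dotted line marks equal values. All 14 called genes lie in the quadrants of equal sign, as do 65.5% of all genes tested. The calls came from these same libraries, so their equal signs are not independent evidence.

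The exercise effect was compared between the flow cells, since they differed so much in composition. Of all genes, 65.5% had the same sign on both. In edgeR's test of the product term no gene passed the threshold for a difference between flow cells (427 genes at an unadjusted p under 0.05, smallest adjusted p 0.988). DESeq2 and limma-voom called none either. Hspa1a had the widest gap among the called genes, 4.67 on flow cell 2 against 2.48 on flow cell 1. Its fitted difference was 2.11 ± 0.67 (unadjusted p = 0.00757, adjusted p = 0.988 in the same edgeR test). With 3 against 3, neither flow cell alone gave a call in edgeR, with 2399 genes at an unadjusted p under 0.05 on flow cell 1 and 180 on flow cell 2. Across genes, the log2 fold change rose with transcript GC content (Spearman correlation 0.646 over all libraries, 0.685 on flow cell 1 and 0.4 on flow cell 2). The GC offsets left 6 calls, 5 of them among the 14: Nr4a1, Nr4a3, P4ha1, Hsph1 and Skida1. The median of all genes was 0.01 with these offsets and -0.02 with 2 surrogate variables.

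Messenger RNAs of the mitochondrial genome were lower without a call. All 13 had a negative log2 fold change, 6 at an unadjusted p under 0.05, with a median of -0.997 and medians of -1.30 and -0.98 on the flow cells. mt-Co3, a subunit of cytochrome c oxidase, was at 1319, 2071 and 8254 CPM in ZT12-SED and at 227, 1186 and 2263 CPM in ZT12-EX, with a log2 fold change of -1.64 ± 0.41 (adjusted p = 0.315). mt-Atp6, of ATP synthase, had -1.86 ± 0.45 (adjusted p = 0.31). The highest mitochondrial shares were those of ZT12-SED replicates 1 and 2 (53.4% and 55.1% of counts), and the lowest that of ZT12-EX replicate 4 (2.70%). Without these 3 libraries the median of the 13 was -0.18, with GC offsets -0.57 and with 2 surrogate variables -0.32. Nuclear-encoded respiratory chain genes gave no call among 25 and a median of 0.13 (-0.07 with 2 surrogate variables).

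Fuel genes gave no call. Of 22 genes of fatty acid use 3 were higher at an unadjusted p under 0.05 (median 0.17), and of 20 genes of glycolysis and glucose transport 5 were (median 0.32). With GC offsets these medians were -0.02 and 0.02, and with 2 surrogate variables -0.06 and -0.02. Pdk4, the kinase that shuts pyruvate dehydrogenase when fat is burned, was at 108 to 345 CPM in ZT12-SED and 53.5 to 534 CPM in ZT12-EX, with a log2 fold change of 0.79 ± 0.32 (adjusted p = 0.362). Ppargc1a, the coactivator of mitochondrial biogenesis that endurance exercise induces in skeletal muscle, had 0.31 ± 0.30 (adjusted p = 0.59). Vegfa, a vessel growth factor, had 0.06 ± 0.31 (adjusted p = 0.927), and both changed sign when single libraries were left out. Among 14 adrenergic genes the main cardiac receptor gene Adrb1 had -1.09 ± 0.27 (adjusted p = 0.315), and the apelin receptor gene Aplnr had -1.27 ± 0.31 (adjusted p = 0.315).

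Load-responsive heart genes gave no call among 16, with 7 higher at an unadjusted p under 0.05 and a median of 0.30 (0.15 with GC offsets). Nppa, the atrial natriuretic peptide gene, was at 44.2, 598 and 1296 CPM in ZT12-SED and at 112, 1646 and 3435 CPM in ZT12-EX, at 1.63 ± 0.63 (adjusted p = 0.362), and Nppb had 0.24 ± 0.39 (adjusted p = 0.764). Nppa is also a marker of atrial muscle. The 7 atrial markers had a summed level of 71.8 to 2391 CPM in ZT12-SED and 340 to 8017 CPM in ZT12-EX, 4 of them were higher at an unadjusted p under 0.05 without a call, the median was 1.63 (0.96 without ZT12-EX replicate 4 and ZT12-SED replicates 1 and 2) and none was at 0 in all libraries. The part of atrial tissue in these values was not tested.

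**Figure D5:**
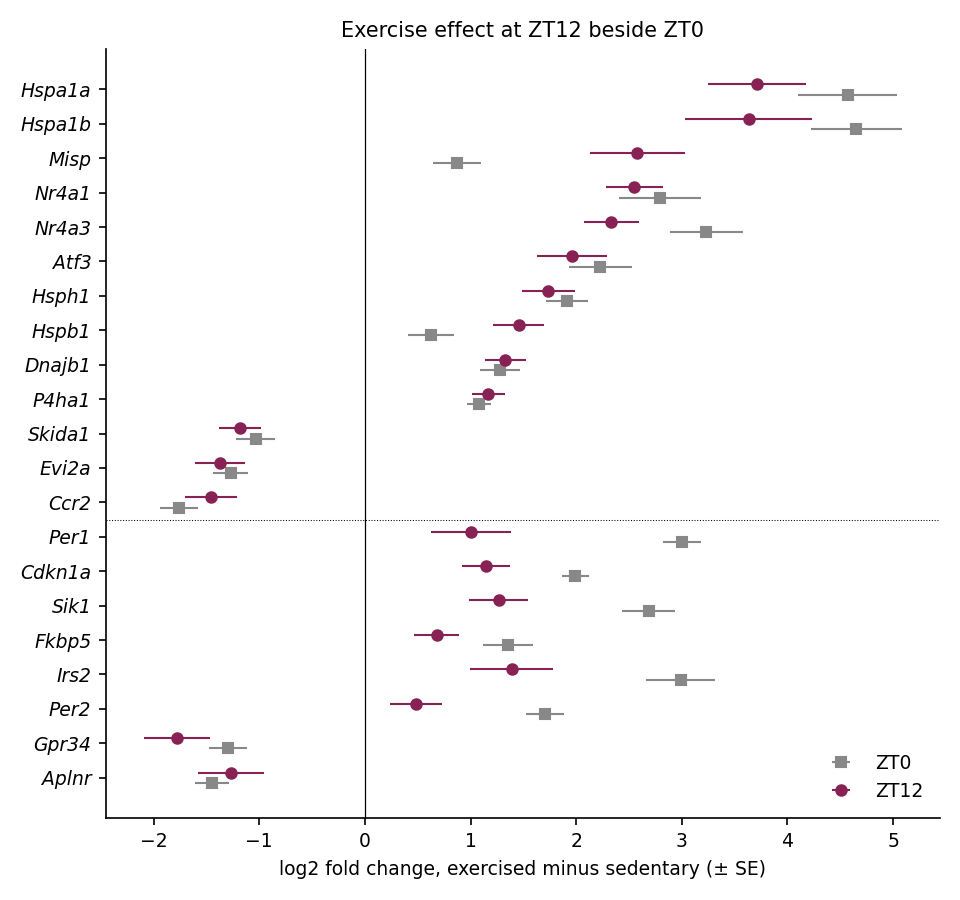
Log2 fold change of exercised minus sedentary mice at ZT12 (purple circles) and ZT0 (grey squares), each from its own 12 libraries, with bars of ± 1 SE; genes above the dotted line are 13 of the 14 called at ZT12. Signs match for all 13. Below the line Per1, Cdkn1a, Sik1, Fkbp5, Irs2 and Per2 have larger values at ZT0, as do several genes above it, Hspa1a among them. The edgeR test called no gene as different between the times.

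The same bout at ZT0, fitted on its own 12 libraries, gave 413 calls among 14611 genes (2.83%), 271 higher and 142 lower. The spread between mice was smaller there, with a median residual SD of 0.284 on the log2 CPM scale against 0.459 at ZT12. For all 14 ZT12 calls the sign was the same at ZT0, a count given here without the share over all genes. Of the 14, 12 were called at both times, which is 85.7% of the ZT12 calls and 2.91% of the ZT0 calls. The exceptions were Hspb1, at 1.46 ± 0.24 at ZT12 and 0.63 ± 0.22 at ZT0 (adjusted p = 0.127), and Misp, at 2.58 ± 0.45 and 0.87 ± 0.22 (adjusted p = 0.0546). The 2 comparisons share no library. Hspa1a had 4.57 ± 0.47 at ZT0, Nr4a1 2.79 ± 0.39, Nr4a3 3.23 ± 0.34, P4ha1 1.08 ± 0.11 and Ccr2 -1.76 ± 0.18.

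The difference between the exercise effects at ZT12 and ZT0 was tested in all 24 libraries, and edgeR called none of 15294 genes (1226 at an unadjusted p under 0.05, smallest adjusted p 0.125). Limma-voom also called none, and DESeq2 called 5, all with a lower log2 fold change at ZT12 than at ZT0: Fam107a, Tob2, Dcbld1, Stc1 and Per1. The names of Fam107a, Tob2, Dcbld1 and Stc1 were taken after these values were seen. Per1 was in the preselected set, which was itself chosen with earlier results of these data known. Per1 had 1.00 ± 0.38 at ZT12 and 3.00 ± 0.18 at ZT0, a difference of -2.24 ± 0.51 (adjusted p = 0.506 in edgeR and 0.0474 in DESeq2). Fam107a, an actin-associated stress and glucocorticoid response gene, had 0.60 ± 0.24 at ZT12 and 2.61 ± 0.26 at ZT0, a difference of -1.98 ± 0.35 (adjusted p = 0.125 in edgeR and 0.00093 in DESeq2). Sik1 had 1.27 ± 0.28 and 2.69 ± 0.25, a difference of -1.41 ± 0.38 (adjusted p = 0.571), and Per2 0.48 ± 0.25 and 1.70 ± 0.18, a difference of -1.21 ± 0.32 (adjusted p = 0.571). For the genes called at ZT12 the differences ranged from -1.21 ± 0.84 for Hspa1b to 1.62 ± 0.53 for Misp (adjusted p = 0.59 and 0.571).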

How the data were processed

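Per the labels' protocols, RNA was extracted with Trizol and made into poly-A selected TruSeq libraries. The deposited files hold whole-number read counts for 52350 Ensembl genes per library, which the authors made with Trimmomatic 0.39, HISAT2 2.2.1 on GRCm39 and featureCounts 2.0.1, per the submitters' processing notes. Neither labels nor notes state their settings, strand use or annotation release, so overlapping and near-identical genes are uncertain. Symbols came from the GENCODE M21 annotation of GRCm38 and were joined by gene identifier; 257 genes had no symbol and 0.00128% of counts. Exon overlaps also came from that annotation, and promoter windows from a RefSeq table of GRCm38.p6.

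The 12 ZT12 libraries were fitted with edgeR 4.0.16 (R 4.3.3): filterByExpr on the 2 groups, TMM scaling, robust quasi-likelihood F test, flow cell and exercise as terms, 9 residual degrees of freedom. Adjusted p is Benjamini-Hochberg over all genes tested, with a threshold of 0.05. Fold changes are log2 with their standard error (SE). CPM is scaled by TMM, and values for 1 flow cell subtract group means of log2 CPM (prior count 2) and come from no model. A count of 3 was worth 0.126 to 0.556 scaled CPM, which covers counting error only. Among 30 pairs of libraries within a group, chi-square per degree of freedom was at least 16.5, so no library looked deposited in duplicate. The fit was run on simulated counts with 200 changed genes and no flow cell effect or GC trend, which checks the code and not its behaviour on these data.

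The comparison, the gene lists and the named genes were chosen with earlier results of these data known. Genes named are those past the threshold (1 of them is not reported here), in each list the 4 of smallest p at most, and a set of preselected genes; others are marked. The labels tie replicate numbers to flow cell and to nothing else, and the main fit has no replicate block. Alternatives were DESeq2 size factors, library totals, no mitochondrial genes, no or a stricter filter (1 CPM in 6 libraries), DESeq2 1.42.0, limma-voom (limma 3.58.1), no flow cell term, a replicate block, each flow cell alone, a spread shared with all 24 libraries, GC offsets, 2 surrogate variables (sva 3.50.0), and leaving out libraries.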

Additional observations from a re-analysis of the deposited data

Results flagged for a closer look

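In 12 of 178 checks a single library stood apart from the other 5 by Dixon's criterion. Chance alone meets it in about 1 in 20 groups of independent values from a normal distribution. Here each group spans flow cells that differ, and the checks reuse the same libraries, so that rate may not hold. Each check took 1 group of 6 mice and the log2 CPM of 1 named gene, the mitochondrial share or the total counts. All 12 flagged checks were of log2 CPM. Of these, 5 were ZT12-EX replicate 4: Nr4a3 at 2.364 (others 3.526 to 3.985), Nr4a2 at -0.8998 (0.7454 to 1.664), Dusp4 at -0.8998 (0.367 to 1.121), Bmal1 at -1.206 (0.0555 to 0.6485) and P2ry13 at -1.206 (-0.05798 to 0.6064). A further 4 were ZT12-SED replicate 1: Bhlhe41 at 4.821 (4.119 to 4.32), Aplnr at 2.459 (3.896 to 4.648), Hif3a at -0.5528 (1.235 to 1.525) and Adrb1 at 3.954 (2.867 to 3.184). Both libraries are among the 3 least like the rest. The others were Irs2 in ZT12-SED replicate 3 at 1.983 (2.841 to 3.159), Dkk3 in ZT12-SED replicate 2 at 1.234 (4.331 to 5.724) and Nppa in ZT12-EX replicate 2 at 6.804 (10.01 to 11.75). Dkk3 and Nppa are atrial markers, and these libraries had the lowest summed atrial level of their group (71.8 and 340 CPM). Among these genes only Nr4a3 was called, and it stayed called without ZT12-EX replicate 4.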

How the results depend on the processing

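All 14 called genes kept their direction under the alternatives tried, but the count of 14 (10 higher, 4 lower) did not hold. It was 12 (9 and 3) with DESeq2 size factors or without mitochondrial genes, 14 with a stricter filter, 11 (8 and 3) in limma-voom, and 13 (12 and 1) without the 3 libraries least like the rest. It was 6 (6 and 0) with library totals, 385 (317 and 68) with no filter, 82 (54 and 28) in DESeq2, 2 (2 and 0) with no flow cell term, 0 on flow cell 1 or on flow cell 2 alone, 45 (29 and 16) with the spread of all 24 libraries, 6 (5 and 1) with GC offsets, 32 (29 and 3) with 2 surrogate variables and 6 (6 and 0) without the sixth replicate of both groups, which hold skeletal muscle transcripts; the cause was not tested. All 14 genes were among the calls with no filter, in DESeq2 and with the shared spread. Leaving out 1 library gave 3 to 18 calls, 3 to 13 higher and 0 to 5 lower.

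With the replicate number as a block there were 8 calls (7 and 1), all among the 14 and without Dnajb1, Evi2a, Atf3, Skida1 and Misp, and 4 (4 and 0) with GC offsets as well. Within group and flow cell, deviations of libraries of the same number correlated at 0.0459 to 0.521, under 0.1 for 2 of 6 numbers (4 and 5). Of the 12 libraries, 9 correlated best with their own number. The labels name no shared source, so whether these libraries share more than a number is not known. At ZT0, 413 calls became 1186 in DESeq2, 146 with the replicate block and 165 with the shared spread. For the difference between times, DESeq2 gave 5 calls and the replicate block 0.

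Signs turned for uncalled genes. Bmal1 had 0.0904 with 2 surrogate variables and 0.17 without the 3 libraries. Nr1d1 had -0.16 on flow cell 2, -0.0254 with GC offsets, -0.0152 with the block too and -0.16 with surrogate variables. Dbp had -0.17 with no flow cell term, -0.30 on flow cell 2, -0.00549 with the shared spread, -0.41 with GC offsets, -0.42 with the block too, -0.50 with surrogate variables and -0.46 without the 3 libraries. Vegfa had -0.0879 in limma-voom, -0.0881 with GC offsets, -0.0797 with the replicate block, -0.20 with both and -0.15 without the sixth replicates. Leaving out 1 library, the ranges were -0.12 to 0.19 for Dbp, -0.27 to 0.21 for Vegfa, -0.00707 to 0.46 for Ppargc1a and -0.12 to 0.46 for Nppb. Depth limits genes of a few CPM, since 3 counts were worth up to 0.556 CPM.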

Other observations

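Markers of smooth muscle and fat differed between libraries without a call. Of 9 pericyte and smooth muscle markers 4 were higher and 1 lower at an unadjusted p under 0.05. The contractile genes Acta2 (1.05 ± 0.29, adjusted p = 0.353), Tagln (1.35 ± 0.38, adjusted p = 0.353), Cnn1 (1.48 ± 0.47, adjusted p = 0.362) and Myh11 (1.05 ± 0.40, adjusted p = 0.362) had positive values. Their mean log2 CPM differed by 1.77, 2.05, 1.87 and 1.61 on flow cell 1 and by 0.40, 0.77, 1.20 and 0.38 on flow cell 2. Rgs5 was lower, at -0.65 ± 0.26 (adjusted p = 0.362), and Kcnj8 (-0.22) and Abcc9 (-0.06) also had negative values. The summed level of the 9 markers was 653 to 1358 CPM in ZT12-SED and 403 to 1079 CPM in ZT12-EX. Adipocyte markers had a median of 1.25 over 7 genes, 2.23 among mice of flow cell 1 and 0.28 among those of flow cell 2. Cidec, a lipid droplet protein gene, had 2.08 ± 0.73 (adjusted p = 0.362) and was the only member at an unadjusted p under 0.05. Fabp4 (-0.19) and Pparg (-0.22) had negative values. The summed level of the 8 adipocyte markers was 1127 to 1811 CPM in ZT12-SED and 773 to 1821 CPM in ZT12-EX. Fibroblast markers had a median of -0.13 over 8 genes and no member at an unadjusted p under 0.05. The oxysterol receptor gene Gpr183, of B cells and other leukocytes, was too low to be tested, at 1.03 to 2.10 CPM in all 6 ZT12-SED libraries and 0.285 to 0.528 CPM in all 6 ZT12-EX libraries.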
